A study of Mus musculus with 18 samples.

Results

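Bone marrow-derived macrophages (BMDMs) that received IL-10 before LPS were compared with resting BMDMs, locus by locus and by gene function. The comparison used 6 of the 18 ATAC-seq libraries of the series, the 3 labelled LPS + IL-10 and the 3 labelled unstimulated, taken by their labels. All cells came from 3 Il10-/- mice on the C57BL/6J background, 12-week-old males, whose marrow was cultured in L929 conditioned medium. LPS + IL-10 cells were given 10 ng/mL IL-10 for 12 hours and then 50 ng/mL LPS for 4 more hours. Unstimulated cells were left untreated for the same 16 hours with PBS in place of LPS. The groups with LPS alone (no pre-treatment, then 50 ng/mL LPS) and IL-10 alone (10 ng/mL IL-10, then PBS), 3 libraries each, are given beside them where a value needs its components. The Il10 gene is disrupted in every group, so no library shows what the cells' own IL-10 would do, and IL-10 here is only the added cytokine. The labels number the libraries of each group from 1 to 3 but do not tie a number to a mouse.

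LPS, a part of the Gram-negative cell wall, is sensed by Toll-like receptor 4, which activates NF-kappaB and AP-1 factors and, through interferon-beta, IRF and STAT factors. IL-10 acts through its receptor and the kinases JAK1 and TYK2 on STAT3, and restrains much of the inflammatory response of macrophages to LPS. In ATAC-seq a transposase cuts open DNA, so the number of reads in a peak measures how accessible that region is. Accessibility is not expression, and a change in bulk cells can come from more open alleles or from more cells with them, which cannot be told apart.

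Of 194230 peaks tested, 20407 rose and 20434 fell in LPS + IL-10 against unstimulated cells, which is 10.5% in each direction and 21.0% in all. A peak was called when its false discovery rate (FDR) was under 0.05 and its log2 fold change was above 0.5 in size, by edgeR with Benjamini-Hochberg adjustment over all peaks. Among the 36666 promoter peaks, 3430 rose (9.35%) and 2464 fell (6.72%), together 16.1%. Among the 157564 distal peaks, 16977 rose (10.8%) and 17970 fell (11.4%), together 22.2%. The median log2 fold change was -1.17 among called lowered distal peaks, which went from a median of 35.0 to 15.2 normalized reads, and 0.93 among raised ones, which went from 60.1 to 117. A log2 change above 1 in size was reached by 7273 raised and 12019 lowered distal peaks. A test against a log2 change of 0.5 called 6749 rises and 6043 falls among distal peaks, and an FDR of 0.01 called 12719 and 9537, so which direction was the more frequent depends on the criterion. Of the called distal peaks, 97.1% of the raised and 94.1% of the lowered ones moved the same way in all 3 same-numbered pairs of libraries, a description only, since the calls came from these libraries. Pair 1 lay within one sequencing lane and pair 3 within another, and the median log2 change of raised distal peaks was 1.07 in pair 1 and 0.86 in pair 3. For lowered distal peaks these medians were -1.27 and -0.98.

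For scale, LPS alone raised 11.7% and lowered 10.2% of all peaks against the same unstimulated libraries, and IL-10 alone raised 5.16% and lowered 3.5%. Where LPS + IL-10 was tested directly against LPS alone, 8275 peaks were higher (4.26%) and 8768 lower (4.51%), 8.77% in all. In all, 40841 peaks were called with LPS + IL-10 and 42592 with LPS alone, each against the same unstimulated libraries.

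The total count in peaks was 12020526 to 17586208 in the unstimulated and 16907995 to 20754096 in the LPS + IL-10 libraries. Unstimulated library 1 stood apart, with the lowest total, a scaling factor of 1.24 and the highest log2 ratio of distal to promoter counts (0.54, against 0.42 and 0.26 in the other two unstimulated libraries). Without it, 14669 distal peaks rose and 13063 fell, and 2797 promoter peaks rose and 1884 fell. Other single libraries moved some of these counts further, with 4640 raised promoter peaks without unstimulated replicate 3 and 12076 lowered distal peaks without LPS + IL-10 replicate 1. The ratio was 0.41 ± 0.14 in unstimulated cells and 0.40 ± 0.04 in LPS + IL-10 cells (SD, n = 3 each), a difference of -0.01 (two-sided exact permutation p = 1.0, smallest possible 0.1). Scaling by total counts in place of TMM moved the median log2 change of all peaks from -0.01 to -0.17, and with it raised peaks made up 33.0% in place of 58.2% of the called promoter peaks and 29.7% in place of 48.6% of the called distal ones. Loess offsets gave 46.4% for promoter peaks, and separate fits of the promoter and distal tables gave 45.3%. All 8 macrophage markers checked, Csf1r and Emr1 among them, had a promoter peak. So did all 5 markers of conventional dendritic cells, 4 of 6 of B cells and 4 of 6 of neutrophils. The same held for 3 of 6 fibroblast, 3 of 4 erythroid, 1 of 6 T cell and 1 of 5 mast cell and basophil markers. Having a promoter peak therefore did not set macrophages apart. Markers without one included Cd3e, Cd3d, Cd3g, Cd8a, Ly6g, Mpo, Col1a2, Col3a1, Gata1 and Cpa3. The promoter peaks of the 4 neutrophil markers that had any summed to 664 to 956 normalized reads in unstimulated and 1129 to 1304 in LPS + IL-10 libraries, with 2 of 6 peaks raised, and the means at Camp were 70.5 and 289. The macrophage list rose as well, from 2147 to 3206 up to 3238 to 3740, with 6 of 10 peaks raised. The part of other cell types in the results was not tested.

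Regions of 5 kinds show the forms that the departure took, with the central 300 bases of each printed as a description only. They are a Saal1 intron near Saa3 that opened with the combination, a region upstream of Il12b that stayed open, a region downstream of Il6 whose change from rest did not pass the test, a region by Fcgr2b that opened in steps, and one by Zfp36l2 that closed. They lie at chr7:53963149-53963448, chr11:44203572-44203871, chr5:30349286-30349585, chr1:172887909-172888208 and chr17:84578016-84578315 of mm9, plus strand, and none overlaps an annotated exon. Capitals mark the letters of a motif searched for, GAGGAAGT (PU.1, on the minus strand here) in the Saal1 region and TTGCNNAA (C/EBP) in the Il12b and Fcgr2b regions. The Il6 and Zfp36l2 regions held none of the 8 motifs in these windows.
Saal1 intron: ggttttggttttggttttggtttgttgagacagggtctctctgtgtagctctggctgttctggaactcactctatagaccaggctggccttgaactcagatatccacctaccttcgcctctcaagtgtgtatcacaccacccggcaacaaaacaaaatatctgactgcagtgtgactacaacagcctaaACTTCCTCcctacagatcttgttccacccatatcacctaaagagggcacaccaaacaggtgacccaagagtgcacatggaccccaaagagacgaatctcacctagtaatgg
Il12b upstream: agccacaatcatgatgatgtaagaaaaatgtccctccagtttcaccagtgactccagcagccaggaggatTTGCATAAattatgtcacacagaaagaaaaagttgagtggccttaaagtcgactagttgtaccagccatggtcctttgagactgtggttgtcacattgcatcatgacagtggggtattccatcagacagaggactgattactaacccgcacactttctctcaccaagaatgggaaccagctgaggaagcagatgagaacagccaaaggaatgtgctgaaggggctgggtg
Il6 downstream: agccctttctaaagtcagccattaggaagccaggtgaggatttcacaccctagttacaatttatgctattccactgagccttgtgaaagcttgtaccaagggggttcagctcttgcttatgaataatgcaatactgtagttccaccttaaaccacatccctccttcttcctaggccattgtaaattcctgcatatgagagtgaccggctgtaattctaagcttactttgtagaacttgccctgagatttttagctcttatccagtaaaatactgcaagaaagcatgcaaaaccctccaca
Fcgr2b downstream: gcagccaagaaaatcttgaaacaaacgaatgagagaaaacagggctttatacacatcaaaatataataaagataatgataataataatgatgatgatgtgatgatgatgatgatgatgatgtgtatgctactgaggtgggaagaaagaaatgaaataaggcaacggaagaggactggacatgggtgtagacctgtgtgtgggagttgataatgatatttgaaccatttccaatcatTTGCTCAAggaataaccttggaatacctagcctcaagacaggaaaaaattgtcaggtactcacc
Zfp36l2 downstream: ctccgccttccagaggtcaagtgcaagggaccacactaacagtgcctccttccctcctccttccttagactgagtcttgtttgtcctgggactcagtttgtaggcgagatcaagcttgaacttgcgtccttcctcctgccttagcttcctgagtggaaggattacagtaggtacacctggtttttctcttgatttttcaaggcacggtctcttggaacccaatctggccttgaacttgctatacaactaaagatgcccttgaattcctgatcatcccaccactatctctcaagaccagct

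The Il1b locus had the largest rise of any peak that passed the naming rule, which asked for an FDR under 0.05, a mean of at least 50 normalized reads and one direction in each same-numbered pair. Il1b encodes the cytokine IL-1beta. In a peak 8.04 kb downstream of its 5′ end and 4.25 kb from the nearest annotated transcript start (chr2:129188319-129189354, intergenic, in the authors' promoter class), the 3 unstimulated libraries held 12.6, 3.1 and 12.4 normalized reads and the 3 LPS + IL-10 libraries 177, 162 and 160. The groups did not overlap, a description only, since the peak was chosen for its rise in these libraries. The log2 fold change was 4.16 ± 0.28 (SE, edgeR adjusted p = 6.8e-24). LPS alone reached a mean of 309, so the peak with IL-10 was lower than with LPS alone (log2 difference -0.90 ± 0.18, edgeR adjusted p = 1.1e-04) and still far above rest. Of 20 peaks within 25 kb of the start of Il1b, 14 rose and none fell, 5 were lower than with LPS alone, and LPS alone raised 14.

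Il12b and Il6 stood nearer to the resting state than Il1b. Il12b encodes the p40 subunit of IL-12 and IL-23, and 3 of its 18 peaks rose, while LPS alone raised 13 and 10 were lower with IL-10 than with LPS alone. The peak with the largest net rise lay 9.84 kb upstream (chr11:44203226-44204217), with 30.2, 44.4 and 59.7 normalized reads at rest and 413, 307 and 323 with LPS + IL-10. Its log2 fold change was 2.93 ± 0.18 (edgeR adjusted p = 4.8e-26) against 3.63 with LPS alone, a direct difference of -0.70 ± 0.14 (edgeR adjusted p = 1.7e-04). The other two raised peaks lay 10.85 and 1.01 kb upstream, with log2 fold changes of 1.54 and 0.52. At 12.42 kb downstream, by contrast, the mean was 31.5 at rest, 71.1 with LPS and 23.8 with LPS + IL-10.

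Of the 13 peaks around Il6, which encodes interleukin 6, 2 rose against rest, LPS alone raised 9, and 8 were lower with IL-10 than with LPS alone. The sharpest case lay 9.73 kb downstream (chr5:30348553-30350317), where unstimulated libraries held 25.1, 16.5 and 23.7 normalized reads, LPS + IL-10 libraries 16.2, 20.7 and 24.2, and LPS alone a mean of 196. The net log2 change of -0.08 ± 0.33 was not called (edgeR adjusted p = 0.891), whereas the difference from LPS alone was -3.25 ± 0.26 (edgeR adjusted p = 7.2e-19). That peak was chosen for its difference from LPS alone. The peaks that rose were at 0.70 kb upstream (206 to 317, log2 0.62) and 1.17 kb downstream of the start (78.7 to 129, log2 0.70). The start of Il6 was thus more open than at rest, while the change of the downstream region did not pass the test.

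Tnf, which encodes tumour necrosis factor, had 10 of 16 peaks raised, against 9 with LPS alone, and 2 lower than with LPS alone. A peak that spans Ltb and part of Tnf (chr17:35332272-35336684) held 342, 403 and 536 normalized reads at rest and 1362, 1178 and 1293 with LPS + IL-10 (log2 1.58 ± 0.14, edgeR adjusted p = 2e-16). LPS alone reached a mean of 1935 there, and the peak was lower with IL-10 than with LPS alone (log2 difference -0.60 ± 0.14, edgeR adjusted p = 0.00105). At the disrupted Il10 gene itself 14 of 20 peaks rose, against 11 with LPS alone and 1 with IL-10 alone. The peak 21.48 kb upstream went from 30.2, 27.9 and 28.8 to 104, 67.5 and 116 normalized reads, and it was higher than with LPS alone (log2 difference 0.71, edgeR adjusted p = 0.0227). The plot of every peak around 9 genes sets these profiles side by side.

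**Figure D1:**
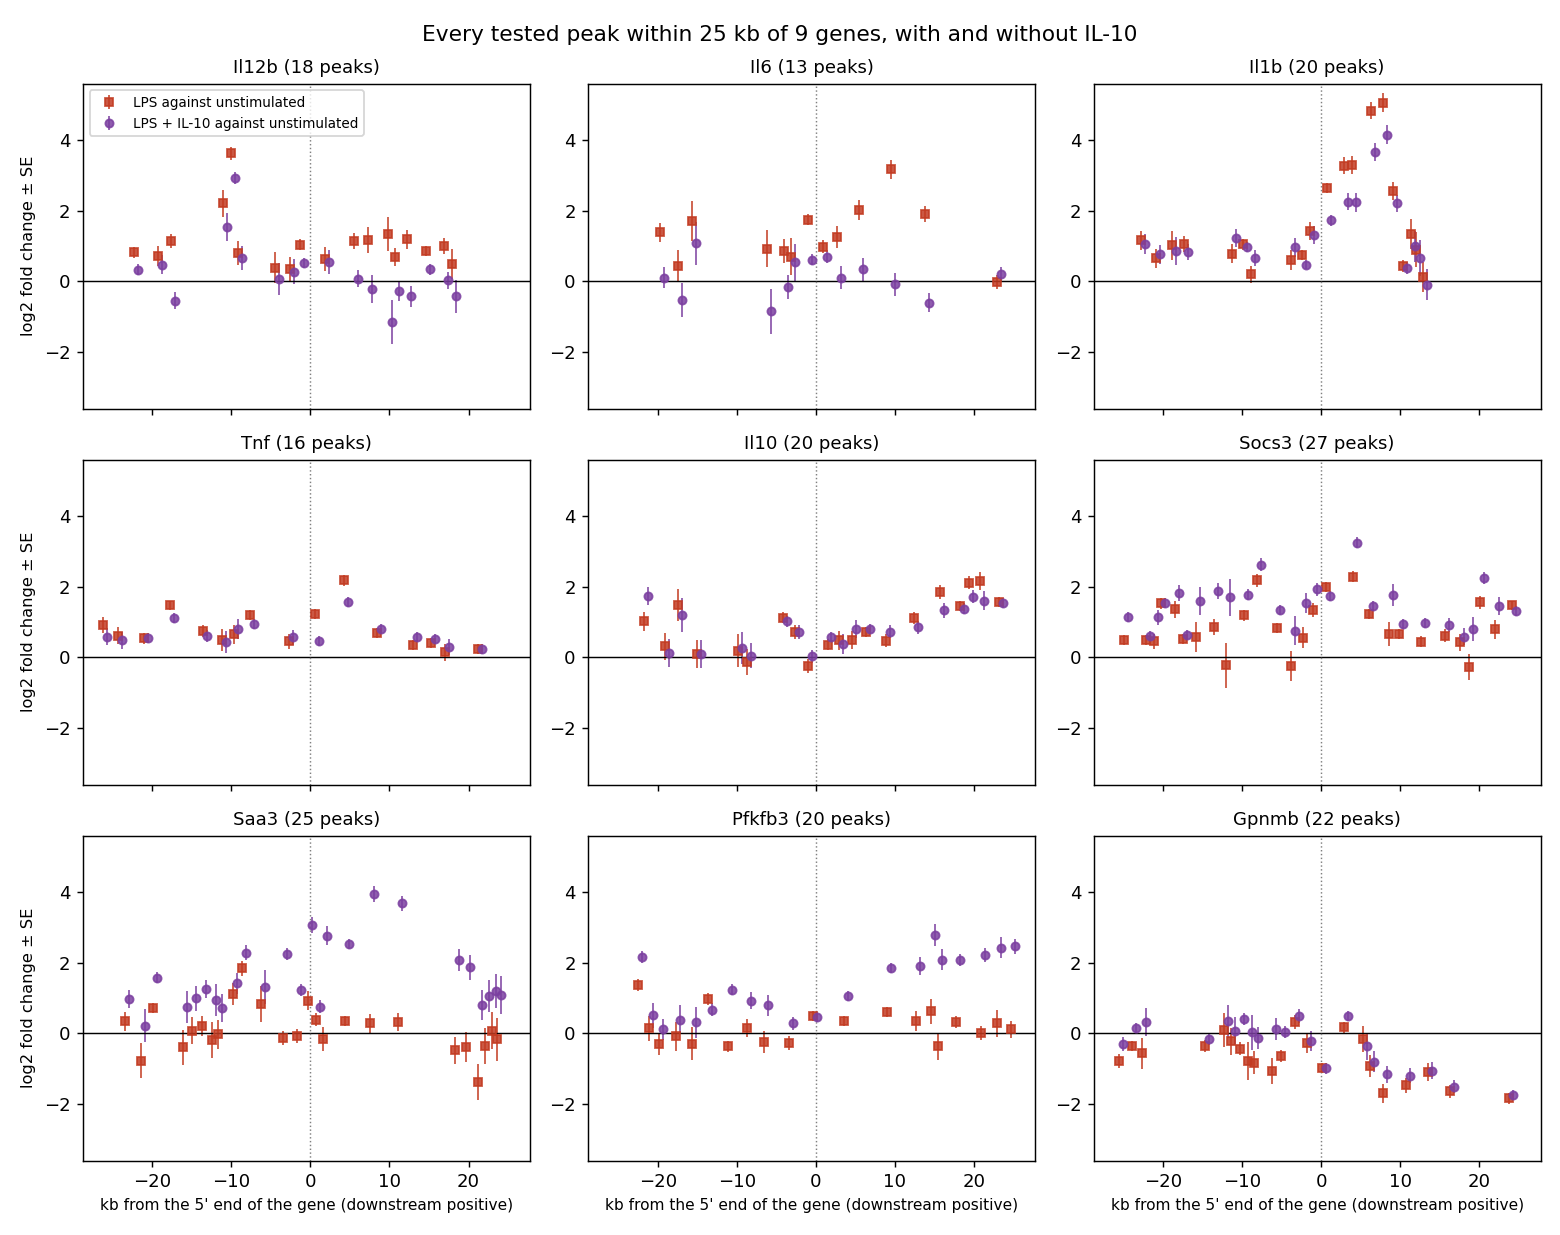
Log2 fold change (y axis, ± SE) of every tested peak within 25 kb of the start of 9 genes, by distance in kb (x axis), for LPS alone (squares) and LPS + IL-10 (circles), each against the same 3 unstimulated libraries. The LPS + IL-10 points of Il12b range from -1.14 to 2.93, the highest 9.84 kb upstream, and those of Il6 from -0.85 to 1.08. At Socs3, 24 of 27 were raised, and those downstream of the start of Saa3 lie above LPS alone.

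Inflammatory genes as a class stayed more open than at rest. Within 25 kb of any protein-coding gene start there were 108851 peaks, of which 10.3% rose and 7.99% fell, with a median log2 change of 0.04. LPS alone raised 12.0% and lowered 7.95% of them, and IL-10 alone 5.7% and 2.82%. Against LPS alone, 3.56% of these peaks were higher and 3.81% lower with LPS + IL-10. Of 18369 genes with such a peak, 30.0% had raised peaks only, 28.2% lowered peaks only and 10.3% both. For inflammatory cytokines 104 of 278 peaks rose (37.4%) and 3 fell, with a median of 0.45, and every one of the 17 genes had a raised peak. Of these cytokine peaks 75 were lower (27.0%) and 3 higher than with LPS alone, which on its own raised 155. Il15, which encodes a growth factor for lymphocytes, and Il12a, the partner of Il12b in IL-12, had both raised and lowered peaks, 3 and 1 of 13 for Il15 and 2 and 2 of 15 for Il12a. CC chemokines had 66 of 142 peaks raised and 1 lowered. In the peak 2.99 kb downstream of Ccl4, which encodes the attractant MIP-1beta, the values rose from 61.6, 52.6 and 49.4 to 958, 760 and 739 (log2 3.91 ± 0.17, edgeR adjusted p = 1.9e-36). LPS alone gave a mean of 968 there, and the difference from LPS alone did not pass the test (log2 -0.24 ± 0.14, adjusted p = 0.285). Ccl5, a chemokine induced by interferon and NF-kappaB, behaved otherwise at its promoter, with 35.2, 22.7 and 16.5 at rest, 349, 251 and 312 with LPS + IL-10 and a mean of 731 with LPS (net log2 3.65, against LPS -1.26, edgeR adjusted p = 3.2e-11). At Ccl22, which encodes an attractant of regulatory T cells, 1 of 8 peaks was lowered against rest and all 8 were lower than with LPS alone. CXC chemokines had 27 of 79 peaks raised and 1 lowered, and 18 lower than with LPS alone. A peak 3.67 kb from the start of Cxcl10 held 47.8, 36.1 and 23.7 at rest, 210, 165 and 215 with LPS + IL-10 and a mean of 496 with LPS alone.

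The interferon arm of the response was more open than at rest, and its 2 lists had the largest shares of peaks lower than with LPS alone among the 22 lists. All 22 type I interferon-stimulated genes, which encode antiviral effectors, had raised and no lowered peaks. They held 187 raised and 0 lowered of 320 peaks (58.4%, median log2 0.81), 101 of which were lower than with LPS alone (31.6%) and 3 higher. IL-10 alone lowered 35 and raised 7 of the same peaks. In a peak 12.6 kb from the start of Ifit1, which encodes an RNA-binding antiviral protein, the reads rose from 12.6, 26.8 and 9.26 to 237, 183 and 172 (log2 3.58 ± 0.23, edgeR adjusted p = 5.3e-25), and LPS alone reached 339. Rsad2, which encodes viperin, had 17 of 23 peaks raised and 18 lower than with LPS alone. For interferon-inducible GTPases, which attack intracellular microbes, 68 of 145 peaks rose, none fell and 70 (48.3%) were lower than with LPS alone, which raised 116. A peak 5.74 kb upstream of Gbp7, one of these GTPases, held 28.9, 22.7 and 11.3 at rest and 274, 160 and 160 with LPS + IL-10, below the 575 of LPS alone (log2 difference -1.54, edgeR adjusted p = 9.2e-13). At Iigp1, a GTPase of the same class, 2 of 10 peaks rose and 8 were lower than with LPS alone.

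NF-kappaB subunits and inhibitors had 97 of 230 peaks raised (42.2%) and none lowered, where 10.3% of all peaks near genes rose and 7.99% fell. Tnfaip3, which encodes the inhibitor A20, had 17 of 22 raised and none that differed from LPS alone by the call. A peak 10.8 kb from its start went from 41.5, 56.8 and 46.3 to 591, 359 and 346 (log2 3.15 ± 0.19, edgeR adjusted p = 2.2e-26). IRF and STAT factors had 56 of 212 raised (26.4%) and 2 lowered (0.943%). Against LPS alone 26 were lower (12.3%, against 3.81% of all peaks near genes). The 2 lowered peaks were at Irf4 and Irf5, and at Irf4 the reads were 108, 116 and 135 at rest and 64.9, 93.6 and 84.6 with LPS + IL-10 (log2 -0.57 ± 0.18, edgeR adjusted p = 0.0135). That call was lost without unstimulated replicate 3 (log2 -0.47, adjusted p = 0.0653) and without LPS + IL-10 replicate 1 (log2 -0.43, adjusted p = 0.125). AP-1 and ATF factors had 45 of 219 raised (20.5%) and 6 lowered (2.74%, below the share of all peaks near genes). Among them Fosl2 had 7 of 23 raised and Jun had 1 of 7 lowered, which is a single peak.

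Receptors and adaptors that sense LPS had 83 of 349 peaks raised (23.8%) and 6 lowered (1.72%), against 10.3% and 7.99% of all peaks near genes. Irak3, which encodes a brake on Toll-like receptor signals, had 16 of 23 raised and 7 higher than with LPS alone. Tlr4, the LPS receptor, had 0 raised and 2 lowered of 12. Enzymes and acute phase proteins of inflammation had 92 of 176 raised (52.3%) and 3 lowered. Against LPS alone 25 were higher (14.2%, against 3.56% of all peaks near genes), of which 13 lay around Saa3. Irg1, which encodes the enzyme that makes itaconate, had 18 of 23 raised. MHC class I genes had 40 of 135 raised (29.6%) and 0 lowered, with 18 lower than with LPS alone (13.3%). MHC class II genes with Ciita, their master regulator, had 26 of 103 raised (25.2%) and 1 lowered. Of the class II peaks 4 were lower than with LPS alone (3.88%), near the 3.81% of all peaks near genes. Costimulatory and checkpoint ligands had 57 of 167 raised (34.1%) and 1 lowered, with 46 lower (27.5%) and none higher than with LPS alone. Cd80, which encodes a ligand of CD28, had no called peak of 15 against rest.

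**Figure D2:**
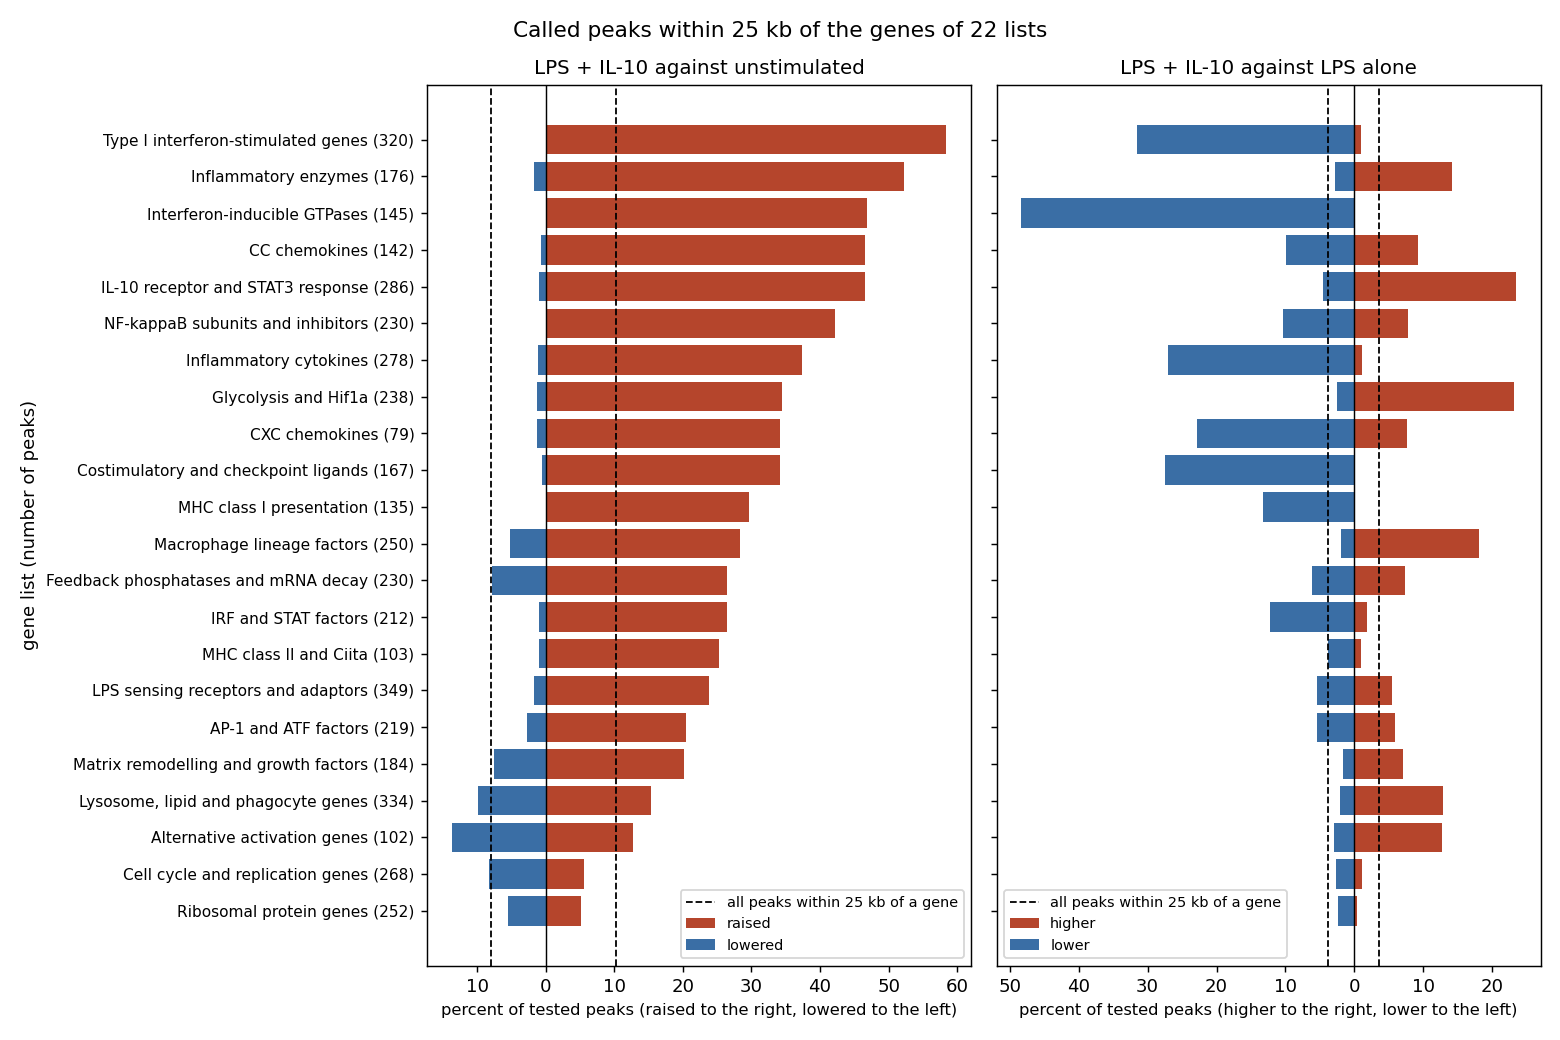
Percent of tested peaks within 25 kb of the genes of 22 lists (number of peaks in brackets) that were raised or lowered in LPS + IL-10 against unstimulated cells (left panel) and higher or lower than with LPS alone (right panel), with dashed lines at the share among all 108851 peaks near genes (10.3% and 7.99% at left, 3.56% and 3.81% at right). Type I interferon-stimulated genes lead at left with 58.4% raised, and interferon-inducible GTPases reach 48.3% lower at right.

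Genes of the IL-10 receptor and STAT3 response opened beyond LPS alone. Of their 286 peaks 133 rose (46.5%) and 3 fell, and 67 were higher (23.4%) and 13 lower than with LPS alone. LPS alone raised 85 of them and IL-10 alone 65. Socs3, a STAT3 target whose product limits cytokine receptors, had 24 of 27 peaks raised and none lowered, and 13 of the 27 were higher than with LPS alone. Over its exon and 3.37 kb from the nearest start (chr11:117825774-117828493) the reads were 122, 123 and 130 at rest and 1256, 1202 and 1102 with LPS + IL-10. This is a log2 fold change of 3.25 ± 0.16 (edgeR adjusted p = 2.5e-32), against means of 510 with IL-10 alone and 611 with LPS alone. The LPS + IL-10 libraries were above LPS alone by a log2 of 0.96 (edgeR adjusted p = 2e-07). On the log2 scale only, the net change was less than the sum of the single effects, 2.03 with IL-10 and 2.29 with LPS (edgeR interaction -1.07, adjusted p = 3.6e-04). Il21r and Il4ra, receptors for IL-21 and IL-4, had 14 of 16 and 10 of 14 peaks raised, with 9 and 8 higher than with LPS alone. Il10rb, a chain of the IL-10 receptor, had 11 of 17 raised and 9 higher than with LPS alone, whereas Il10ra, the chain specific for IL-10, had 3 of 18 raised and 4 lower than with LPS alone. Hmox1, which encodes the heme-degrading enzyme, had 2 lowered of 17 peaks and none raised, where 7.99% of all peaks near genes fell. Fcgr2b, the inhibitory receptor for IgG, lay by a peak (chr1:172887785-172888332) that rose from 13.8, 10.3 and 6.18 to 139, 133 and 122 (log2 3.71 ± 0.29, edgeR adjusted p = 1.2e-19). Each single treatment raised it as well, to means of 39.9 with IL-10 and 37.5 with LPS, and the interaction did not pass the test (-0.20, adjusted p = 0.838).

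At some loci a region opened with both treatments that passed the test with neither treatment alone. In the Saal1 intron peak (chr7:53962488-53964108), 7.75 kb downstream of the start of Saa3, which encodes an acute phase serum amyloid protein, the unstimulated libraries held 44.0, 21.7 and 30.9 normalized reads. The mean was 49.8 with IL-10 and 38.1 with LPS, and the LPS + IL-10 libraries held 543, 525 and 402. The net log2 fold change was 3.95 ± 0.22 (edgeR adjusted p = 4.1e-29), neither single effect passed the test (LPS 0.28, adjusted p = 0.495, IL-10 0.66, adjusted p = 0.0846), and the interaction was 3.01 ± 0.35 (edgeR adjusted p = 8.8e-10). Of 25 peaks within 25 kb of Saa3, 17 rose and 13 were higher than with LPS alone, which raised 4. At the start of Saa3 itself the mean was 29.6 at rest, 43.0 with IL-10, 56.3 with LPS and 247 with both (net log2 3.07 ± 0.23, edgeR adjusted p = 5.6e-21). The whole profile of Saa3 and that of Pfkfb3 were described after their values were seen.

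Pfkfb3, whose product drives glycolysis through fructose 2,6-bisphosphate, also opened mainly with both treatments. Of its 20 peaks 14 rose and 13 were higher than with LPS alone, while LPS alone raised 4 and IL-10 alone 0. The largest net log2 change among these 20 was 2.78. A peak outside the 20, beyond 25 kb from the 5′ end of the gene, changed more (chr2:11389251-11391626, 25.2 kb downstream of the nearest annotated start). It went from 52.8, 59.9 and 35.0 to 650, 433 and 478 normalized reads, with means of 50.2 for IL-10 and 83.3 for LPS (net log2 3.40 ± 0.19, interaction 2.59, edgeR adjusted p = 1.3e-10). LPS alone gave a log2 change of 0.78 there (edgeR adjusted p = 0.00294). Within the list of glycolysis genes with Hif1a, 82 of 238 peaks rose (34.5%, against 10.3% of all peaks near genes) and 3 fell. Against LPS alone 55 were higher (23.1%) and 6 lower, so the 13 higher peaks of Pfkfb3 were a minority of the 55. Pgk1, a glycolytic kinase on the X chromosome, had 11 of 20 raised and 5 higher, and Slc2a1, the glucose transporter GLUT1, had 6 of 13 raised and 2 higher. A further such region lay 44.9 kb upstream of Lrig2, at 16.3, 22.7 and 17.5 against 184, 98.0 and 102, with a mean of 12.7 under LPS alone. Its difference from LPS alone, for which it was chosen, was 3.34 (edgeR adjusted p = 1.1e-15).

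Lineage factors and markers had 71 of 250 peaks raised and 13 lowered, and 45 were higher and 5 lower than with LPS alone, which itself lowered 31. Zeb2, a factor that macrophages need to keep their identity, had 7 of 14 raised, with 66.6, 91.9 and 56.6 at rest and 321, 286 and 260 with LPS + IL-10 at a peak 9.09 kb upstream (log2 2.00 ± 0.17, edgeR adjusted p = 8.3e-18). Msr1, which encodes a scavenger receptor, had 15 of 19 raised and 10 higher than with LPS alone. Of other scavenger receptors, Cd36 had 2 of 6 raised and none lowered. Cd163 had 1 of 10 raised, near the 10.3% of all peaks near genes, and also a lowered peak. Marco had no called peak of 4. At 30.7 kb from the start of Tgfbi, which encodes a matrix protein induced by TGF-beta, LPS alone went the opposite way, with a mean of 19.9 against 33.9, 40.3 and 34.0 at rest. IL-10 alone raised the mean to 108 (log2 1.58, edgeR adjusted p = 2.6e-07). The LPS + IL-10 libraries held 154, 186 and 148 (net log2 2.16 ± 0.22, against LPS alone 3.03, edgeR adjusted p = 3.3e-19). Like the Lrig2 region, this peak was chosen for its difference from LPS alone.

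**Figure D3:**
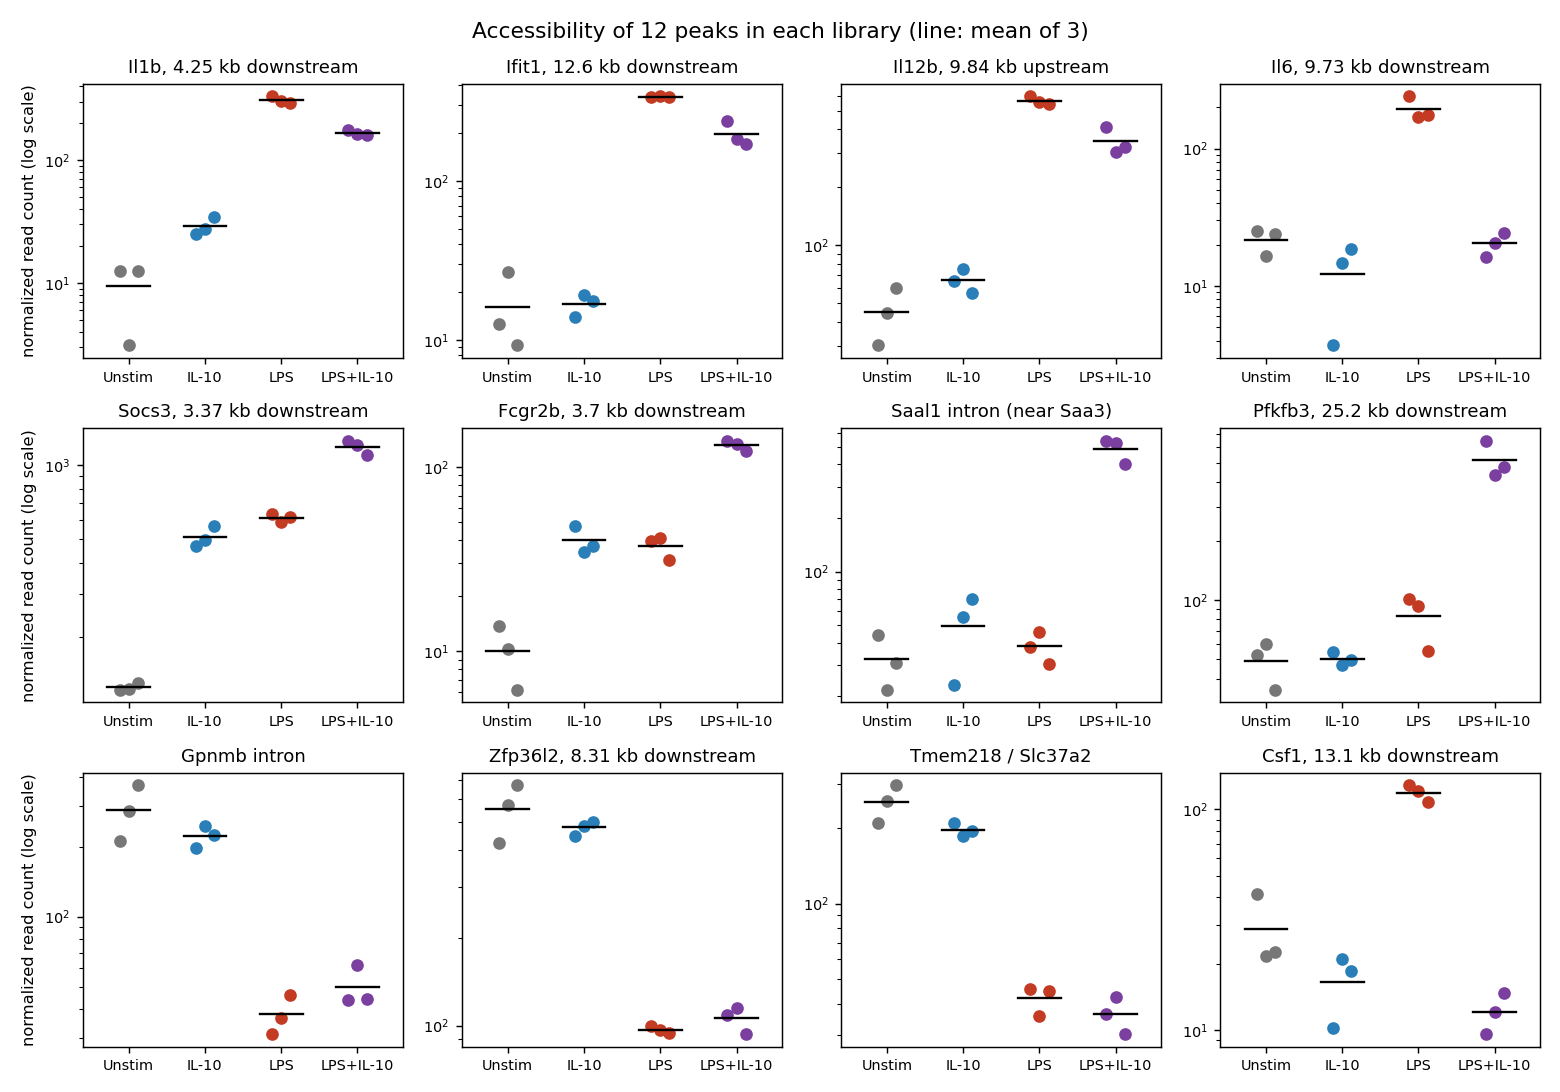
Normalized read count (log y axis) of 12 peaks in each library of 4 groups (x axis), 1 point per library and a line at the mean of 3, with distances in kb to the nearest annotated transcript start. The top row shows peaks opened by LPS and lower with IL-10 (Il1b, Ifit1, Il12b and Il6). The middle row shows peaks higher with LPS + IL-10 than with LPS alone (Socs3, Fcgr2b, Saal1, Pfkfb3). The bottom row shows peaks closed against rest (Gpnmb, Zfp36l2, Tmem218, and Csf1, which LPS alone opened).

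At the closed peaks given here LPS alone lay near LPS + IL-10. The LPS + IL-10 and unstimulated libraries did not overlap there, a description only, since the peaks were chosen for their fall in these libraries. At Gpnmb, which encodes a lysosomal glycoprotein of lipid-laden macrophages, 7 of 22 peaks fell and none rose, against 11 lowered by LPS alone, and 4 were higher than with LPS alone. An intron peak of Gpnmb (chr6:49016185-49019726) fell from 212, 286 and 369 to 43.9, 62.0 and 44.0 (log2 -2.55 ± 0.19, edgeR adjusted p = 2e-21), where LPS alone gave 37.9. Among peaks that met the naming rule, the largest fall lay in an exon of Dlgap5, a mitotic gene, 17.4 kb downstream of the start of Lgals3, which encodes the lectin galectin-3, from 189, 248 and 308 to 15.3, 28.3 and 41.4 (log2 -3.11 ± 0.21, edgeR adjusted p = 2.3e-23). Over Tmem218 next to Slc37a2, a sugar phosphate transporter of macrophages, the reads fell from 209, 257 and 296 to 36.3, 42.4 and 30.2 (log2 -2.82). By Sepp1, which encodes a selenium carrier, they fell from 138, 152 and 218 to 24.8, 26.1 and 29.3 (log2 -2.66). By the same rule, the promoter-class peak that fell most lay 20.5 kb downstream of the start of Slc40a1, the iron exporter ferroportin, at 195, 221 and 232 against 45.8, 46.8 and 37.1 (log2 -2.33 ± 0.19, edgeR adjusted p = 4.5e-19). Zfp36l2, which encodes an mRNA decay factor, had the largest fall by that rule in the feedback list, from 424, 574 and 671 to 109, 115 and 93.2 at a peak 8.31 kb from its start (log2 -2.40). None of these peaks differed from LPS alone by edgeR, with differences between -0.65 at Dlgap5 (adjusted p = 0.0886) and 0.40 at Gpnmb (adjusted p = 0.297), though a missed threshold does not show that they were equal. IL-10 alone lowered the Slc40a1 peak to a mean of 124 (log2 -0.81, edgeR adjusted p = 4.5e-04) and the Dlgap5 peak to 157 (log2 -0.66, edgeR adjusted p = 0.00616). At the Gpnmb intron, Tmem218, Sepp1 and Zfp36l2 peaks the effect of IL-10 alone did not pass the test.

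Lysosome, lipid and phagocyte genes were split, with 51 raised (15.3%) and 33 lowered (9.88%) of 334 peaks, against 10.3% and 7.99% of all peaks near genes. Their median was 0.06, close to the 0.04 of all peaks near genes. Total-count scaling turned the counts to 29 raised and 44 lowered, and loess offsets gave 38 of each. Against LPS alone, 43 were higher (12.9%) and 7 lower (2.1%), where the shares of all peaks near genes were 3.56% and 3.81%. LPS alone had lowered 65. Ctsd, which encodes cathepsin D, had 1 raised and 5 lowered of 16, and Trem2, a lipid receptor, 1 and 3 of 15. Alternative activation genes had 13 raised (12.7%) and 14 lowered (13.7%) of 102, against the same 10.3% and 7.99%. Total-count scaling gave 8 raised and 18 lowered, and loess offsets 13 and 10. Chi3l3, which encodes the chitinase-like protein Ym1, had 8 lowered of 9, and Retnla, which encodes RELMalpha, had 2 lowered of 7. Matrix and growth factor genes had 37 raised (20.1%) and 14 lowered (7.61%) of 184, the latter near the 7.99% of all peaks near genes. Among these genes Mmp14, a membrane-bound matrix protease, held 15 raised of 21. The feedback phosphatases and mRNA decay factors had 61 raised (26.5%) and 18 lowered (7.83%) of 230, the latter again near that share. Dusp1, a phosphatase of stress kinases, had 12 raised of 17 and 7 higher than with LPS alone. Cell cycle genes (15 raised and 22 lowered of 268) and ribosomal protein genes (13 and 14 of 252) were called at rates below or near those of all peaks near genes. Total-count scaling gave 5 raised and 35 lowered for cell cycle genes and 5 and 22 for ribosomal protein genes, and DESeq2 gave 16 raised and 11 lowered for the latter.

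A peak by Csf1 lay below rest although LPS alone had opened it. At 13.1 kb from the start of Csf1, which encodes the growth factor M-CSF, the reads were 41.5, 21.7 and 22.6 at rest, 119 on average with LPS, and 9.54, 12.0 and 14.7 with LPS + IL-10. The net log2 change was -1.20 ± 0.34 (edgeR adjusted p = 0.00557) and the difference from LPS alone, for which the peak was chosen, -3.28 ± 0.29 (edgeR adjusted p = 2.4e-16). Without unstimulated replicate 1, which held the 41.5 reads, the net change was -0.86 and no longer passed the test (edgeR adjusted p = 0.106), nor did it in a test against a log2 change of 0.5 (edgeR adjusted p = 0.0651).

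Some windows of the genome held many called peaks. On a grid of 200 kb windows, 8936 windows held a tested peak, with a median of 18 peaks, 1 raised and 1 lowered. The window richest in raised peaks lay at chr1:84000001-84200000 inside Pid1, an adaptor that restrains insulin signals, with no gene start in it. Of its 74 peaks 71 rose and none fell, 55 were higher than with LPS alone, LPS alone raised 14 and IL-10 alone 1. The Nostrin window on chromosome 2 had 59 of 66 raised, the same number as LPS alone, and 9 lower than with LPS alone. The Dusp16 and Crebl2 window on chromosome 6 had 55 of 77 raised and 26 higher than with LPS alone. The window of Rab31, a small GTPase of endosomes, and Ppp4r1 on chromosome 17 had 53 of 106 raised and none lowered, while LPS alone lowered 20 and raised 4, and 78 peaks were higher than with LPS alone. The Ms4a cluster on chromosome 19, a family of membrane proteins of macrophages, had 48 of 68 raised. In the windows richest in lowered peaks, the one inside Xylt1 on chromosome 7 had 34 of 64, the Cpne3 window on chromosome 4 had 33 of 51, that of Gas6, a ligand of the receptor MERTK, on chromosome 8 had 28 of 52, that of Zmynd19 and Pnpla7 on chromosome 2 had 28 of 54, and that of Igf1, the growth factor, on chromosome 10 had 27 of 56. LPS alone lowered 37, 30, 32, 21 and 30 of the same peaks, and at most 4 peaks of any of these 5 windows were higher than with LPS alone.

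**Figure D4:**
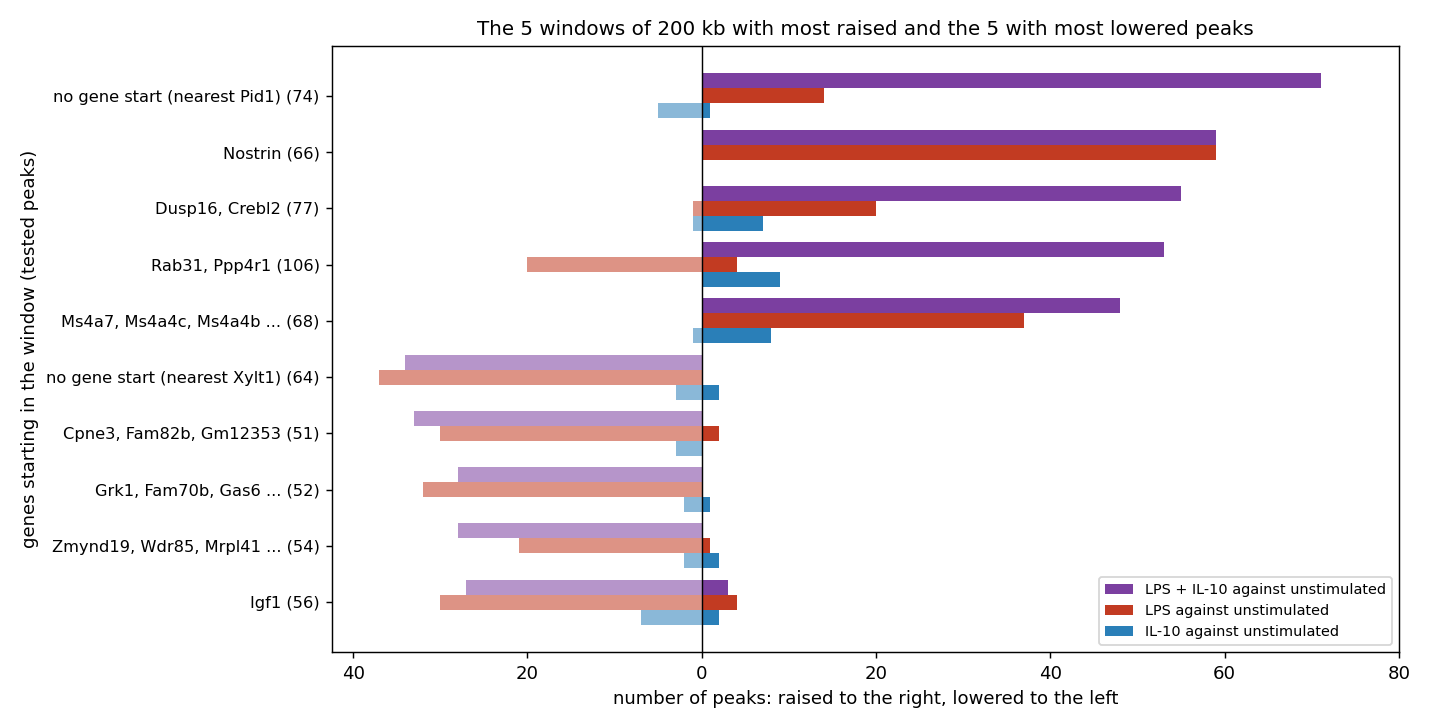
Number of raised peaks (to the right) and lowered peaks (to the left, paler) in the 10 windows of 200 kb with most raised or most lowered peaks in LPS + IL-10 against unstimulated cells, with the counts for LPS alone and IL-10 alone, all against the same 3 unstimulated libraries (tested peaks in brackets). The Pid1 window has 71 raised with both treatments against 14 with LPS, and the Rab31 window 53 raised against 20 lowered with LPS.

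Raised and lowered regions differed in base content, width and motif letters, given as a description. Raised distal peaks had a median width of 1377 bp and lowered ones 917 bp, against 906 bp in all, with a median GC content of 44.3% and 47.0%. In the central 300 bases, searched on both strands, the AP-1 letters TGANTCA stood in 17.1% of raised, 10.3% of lowered and 13% of all distal peaks. The C/EBP letters TTGCNNAA stood in 16.9%, 11.5% and 13.1%, and the IRF pair GAAA and GAAA with any 2 bases between in 5.94%, 3.44% and 4.57%. For the kappaB letters GGGA and TTCC with any 2 bases between, the shares were 1.51%, 1.14% and 1.26%, and for the STAT letters TTCCNGGAA 1.1%, 0.879% and 0.937%. PU.1 letters ran the other way, at 4.21% of raised, 5.74% of lowered and 4.95% of all, as did the MiT/TFE letters TCACGTGA of lysosome gene regulators at 0.177%, 0.306% and 0.234%. The CTCF consensus was rarer in both called sets (0.884% and 0.445%) than in all distal peaks (1.8%). Windows of 200 and 500 bases kept the order of raised over lowered peaks for AP-1, C/EBP and IRF and of lowered over raised for PU.1. A region can hold several of these motifs.

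The test of whether the LPS effect differed with IL-10 present called 3907 peaks with a positive (2.01%) and 11454 with a negative (5.9%) interaction on the log2 scale. Promoter peaks were 1.4% positive and 16.9% negative, and distal peaks 2.15% and 3.33%. Beside this stand the mean log2 ratios of distal to promoter counts, which were 0.41 in unstimulated, 0.20 in IL-10, 0.24 in LPS and 0.40 in LPS + IL-10 libraries, and their part in the result was not tested. The split turned to 12207 positive and 5152 negative with total-count scaling and to 4369 and 3543 with loess offsets, so the prevalence of negative interactions depends on the scaling. The interactions at Il1b (-2.54), in the Saal1 intron (3.01) and 25.2 kb from Pfkfb3 (2.59) kept their direction under each scaling tried.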

How the data were processed

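ATAC-seq was performed on Il10-/- BMDMs, and per the labels and the study's methods the authors aligned reads to mm9 with Bowtie2, called peaks per library with MACS2, merged them and sorted them into promoter and distal classes with ChIPseeker. The authors deposited raw read counts per peak in a union table and in a promoter and a distal table, and the counting tool is not given in the sources used here. Of the deposited columns, 6 matched no sample label and were not used. Counts were taken from the union table, and the class of each peak from the promoter and distal tables. On these counts edgeR 4.0.16 (R 4.3.3) was run with TMM scaling, its default filter on low counts and a quasi-likelihood fit over all 6 groups without a replicate block, with Benjamini-Hochberg adjustment over all peaks. Normalized reads are counts divided by the effective library size and multiplied by its mean over libraries. Calls needed both an FDR below 0.05 and an absolute log2 change of more than 0.5. Peaks were linked to genes whose 5′ end lay within 25 kb in GENCODE vM1 (mm9). Nearby paralogs such as the Ifit, Gbp and Saa genes share links, so a peak near several of them cannot be assigned to one.

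Peaks named in full were the 6 largest rises and 6 largest falls, the 4 of each in the promoter class, and 1 of each per gene list, all with FDR under 0.05, at least 50 normalized reads on average, one direction across the 3 same-numbered pairs and 1 peak per gene. The 3 highest and 3 lowest against LPS alone, the 3 most positive and 3 most negative interactions, and the peak of largest change at 7 genes were added, with the 5 windows richest in raised and in lowered peaks. The 22 lists, the genes and this rule were chosen with earlier results of these data known. The examples at Saa3 and Pfkfb3 other than these, and the genes singled out within lists, were chosen after their values were seen.

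The alternatives were DESeq2 1.42.0, other scalings, filters and thresholds, a replicate block, a lane term, a fit of the compared groups alone, separate tables, and leaving out each library. On simulated counts the fit recovered 91.5% of 200 peaks changed by a log2 of 1.5 in LPS + IL-10 against unstimulated cells, and called 4 unchanged peaks. The simulation gave all 193816 peaks the same dispersion and changed no others. Far more peaks were called in the real data, so it cannot speak to the dependence on scaling. The labels give 3 mice but do not say which library came from which, and 3 libraries per group limit the precision.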

Additional observations from a re-analysis of the deposited data

Results flagged for a closer look

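The following values were singled out because the effect of LPS differed with IL-10 present, by the edgeR interaction term with Benjamini-Hochberg adjustment. Negative interactions on the log2 scale were found at the peaks by Il1b (-2.54), Ccl5 (-1.17), Nod1 (-1.25), Socs3 (-1.07), Gbp7 (-1.36), H2-Ob (-0.75), Irf4 (-1.06), Il12b (-1.23) and Ltb (-0.72). Further negative values stood at Csf1 (-2.53), 9.73 kb downstream of Il6 (-2.45), and at 1700025C18Rik (-2.02), Gbp4 (-3.1) and Zufsp (-2.61). Positive interactions were found at the Saal1 intron (3.01), the second Saal1 peak (3.16), Msr1 (1.64), the Pfkfb3 intron (1.55), the peak 25.2 kb from Pfkfb3 (2.59), Slc40a1 (0.97), Pdgfa (0.85), Lrig2 (3.6) and Tgfbi (1.45). Those at Il1b, Gbp4, Zufsp, the Saal1 peaks and 25.2 kb from Pfkfb3 were chosen for the size of their interaction. The peaks at Csf1, 9.73 kb downstream of Il6, 1700025C18Rik, Lrig2 and Tgfbi were chosen for their difference from LPS alone, which is a part of the interaction. All others were chosen for their change against unstimulated cells, from the same libraries.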

How the results depend on the processing

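Under edgeR's test against a log2 change of 0.5, 1169 promoter peaks rose and 592 fell, 6749 distal peaks rose and 6043 fell, 1520 were higher and 2023 lower than with LPS alone, and 1108 had an interaction. Scaling by total counts gave 1990 raised and 4046 lowered promoter peaks and 11101 raised distal peaks. Loess offsets gave 7912 interactions, and a filter of 10 counts in every library 11634 lowered distal peaks. At an FDR of 0.01, 1329 promoter and 9537 distal peaks fell, 4985 were higher and 5316 lower than with LPS alone, and 7550 had an interaction. The difference in the log2 distal to promoter ratio was -0.18 from median counts per kb, 0.05 without unstimulated replicate 1 and 0.01 without LPS + IL-10 replicate 1. The cause of these shifts was not tested. Leaving out 1 library gave 2797 to 4640 raised and 1666 to 2501 lowered promoter peaks, 13689 to 17639 raised and 12076 to 17975 lowered distal peaks, 6167 to 8843 higher and 6267 to 9491 lower than with LPS alone, 10483 to 23031 interactions, and a ratio difference of -0.08 to 0.05. The peak 9.73 kb downstream of Il6 changed sign without unstimulated replicate 1 (0.02) and without LPS + IL-10 replicate 1 (0.06), was called in neither, and ranged from -0.26 to 0.06 with 1 library left out. Same-numbered libraries share only a number in the labels, and their deviations from the group means correlated at a mean of -0.0449 over 3 pairs, against 0.0225 over the 6 other pairs, with none of the 3 LPS + IL-10 libraries correlating best with its own number. With the replicate block, 3437 promoter peaks rose and 2446 fell and 17043 distal peaks rose and 17810 fell, and it changed no call of a named peak. Of 1350 alternative values of named peaks, 1323 kept their direction and side of the threshold.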
